A study of Arabidopsis thaliana with 4 samples.

Results

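The genes described here are the nuclear loci of Arabidopsis thaliana that were counted in whole leaf and at 0 in leaf protoplasts. They were chosen by their own counts: 0 in both protoplast libraries and at least 20 in each of the 2 leaf libraries. Of the 24651 nuclear loci in the deposited count table, 17774 reached the leaf minimum and 152 of these met the whole rule, a background of 0.855%. The leaf to protoplast difference of these 152 loci is therefore a description of the choice, and no test is given for it.

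Poly(A) RNA of wild-type Col-0 plants, 6 weeks old and kept in short days (8 h light, 16 h dark), was sequenced from mature leaves and from leaf protoplasts, which are cells freed of their walls. For the protoplasts, the lower epidermis was pulled off with tape, the leaves were cut beside the main vein, and the tissue was shaken for 2 h in 1% cellulase and 0.3% macerozyme with 0.6 M mannitol, filtered and washed. The protocol text is the same for all 4 libraries: it calls the leaf samples not protoplasted and does not say whether they were peeled. Each kind had 2 libraries, called biological replicates without any plant or day being named, so p-values below reflect the spread between these libraries alone, and that spread may be technical.

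A leaf holds several tissues. The epidermis makes the waxy cuticle and carries guard cells and trichomes, the mesophyll carries out most photosynthesis, and the veins hold phloem, for sugar transport, and xylem, whose vessel walls are thickened with xylan and lignin. Protoplasting opens the primary wall with enzymes, and cells with thick or coated walls are known to be released poorly. In bulk RNA, fewer cells of a type and less RNA per cell cannot be told apart.

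The libraries held 42121436 and 43685947 counts for leaf and 48503141 and 39958035 for protoplasts. By these raw totals protoplast library 1 was the deepest of the 4 and protoplast library 2 the shallowest. With the scaling used for the folds below, both protoplast libraries were shallower than both leaf libraries. Over all 20200 genes tested with the quasi-likelihood test of edgeR, 8231 were lower and 8036 higher in protoplasts at an adjusted p under 0.05. With upper-quartile scaling the split was 11047 lower and 6183 higher, and with library size alone 14057 and 4326, as the median log2 change of all genes moved from -0.04 to -0.37 and -0.85. A list of 27 mesophyll photosynthesis genes was planned as a check of the protoplasts. Of these genes 25 rose and 2 fell in protoplasts, and no member belongs to the list. With library size alone 2 rose and 17 fell, so the direction depends on the scaling and cannot check the labels.

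Of the 152 members, 146 code for proteins, 3 are microRNA genes and 3 are other noncoding RNAs. The microRNA genes are shown first because their products are known exactly. MicroRNAs guide the silencing of matching transcripts, and miR156 and miR157 hold back SPL transcription factors and with them the change from juvenile to adult growth. The mature sequences are those of RefSeq's TAIR10.1 annotation, with the seed, bases 2 to 8, in capitals.
miR157c-5p: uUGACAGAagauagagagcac
miR156d-5p: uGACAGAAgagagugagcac
miR833a-5p: uGUUUGUUguacucggucuagu
miR833a-3p: uAGACCGAugucaacaaacaag

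The seeds of miR157c-5p and miR156d-5p overlap, shifted by 1 position, and neither shares a seed with miR833a. The libraries count the precursor transcripts and not the mature RNAs. MIR157c had 76 and 84 counts in leaf. MIR156d had 55 and 38, and it lies on the same strand within AT5G10946, whose counts were 745 and 586 (leaf) and 42 and 33 (protoplasts), so the locus that contains it was not at 0. MIR833a had 22 and 23 counts, close to the minimum, and lies within another member, AT1G78476, with 71 and 84. The counts of nested loci are uncertain, and these last 2 members are not independent. Of the 111 microRNA loci in the table, 26 reached the leaf minimum and these 3 are members.

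The members were mostly genes of low leaf level. Together they took 14860 of the counts of leaf library 1 and 15485 of leaf library 2, which is 0.0353% and 0.0354% of them. Their summed leaf counts ran from 43 to 1907 with a median of 94. At least 50 counts in each leaf library were found in 65 of them, at least 100 in 36, at least 200 in 16 and at least 500 in 4.

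For folds, a count of 0 was set to its upper limit of 3 counts in each library, which makes them lower bounds that cover counting error only. On CPM (counts per 1e6 counts, scaled by edgeR's TMM factors) the bounds ran from 4.18-fold to 185-fold, with a median of 9.15-fold. The TMM factors were 1.32 and 1.32 for the leaf libraries and 0.764 and 0.749 for the protoplast libraries. On this scale 3 counts were 0.0538 and 0.0520 CPM in leaf and 0.0810 and 0.100 CPM in protoplasts. The lowest bounds say only that those genes were too rare in leaf for a deeper loss to be visible. The edgeR fit called all 152 lower, beside 40.7% of all genes tested; the rule used this contrast, so nothing is read from that count.

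**Figure D1:**
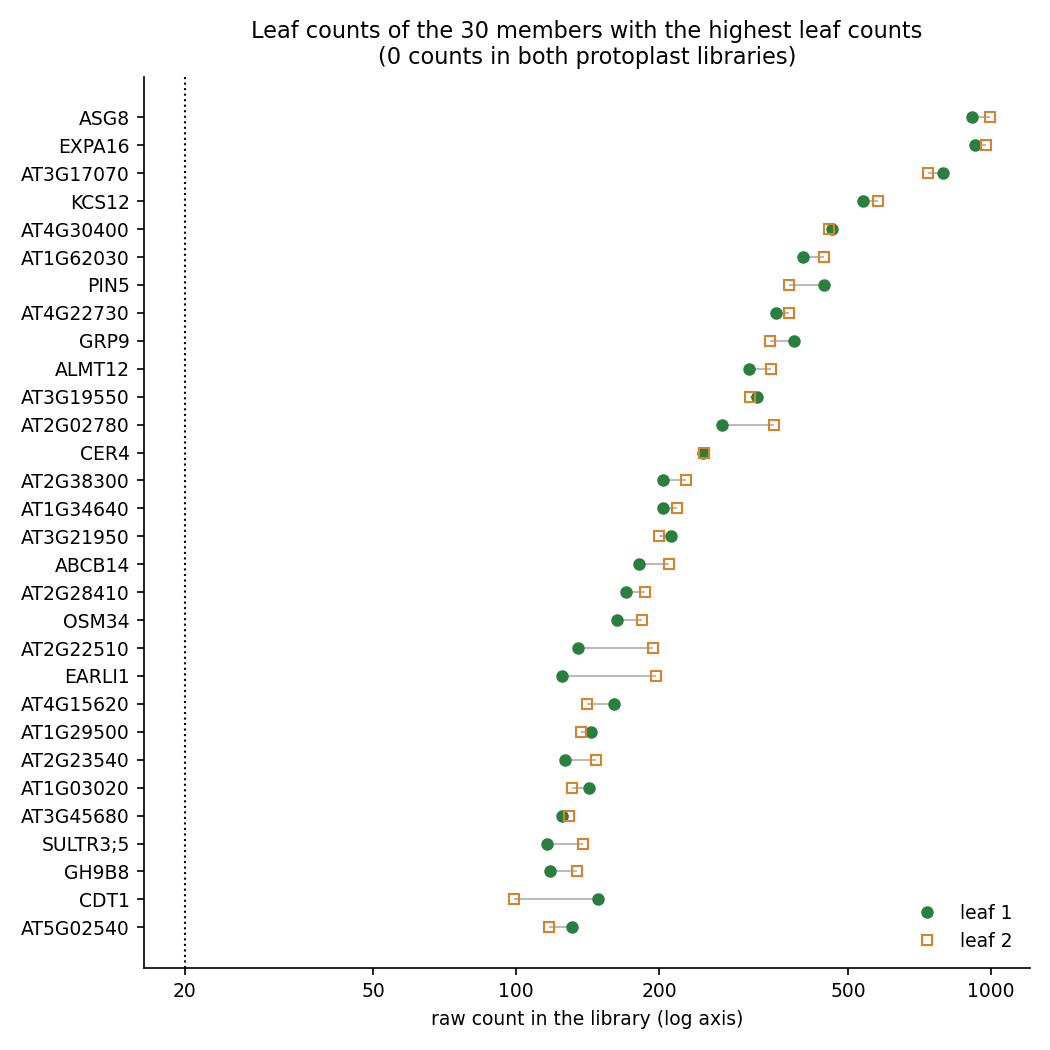
Raw counts in leaf library 1 (filled circles) and leaf library 2 (open squares) for the 30 members with the highest leaf counts, on a log axis, with the minimum of 20 as a dotted line. Every gene shown has 0 counts in both protoplast libraries, with leaf counts from 913 and 994 for ASG8 down to 131 and 117 for AT5G02540, and the widest gaps between leaf libraries in CDT1 (149 and 99) and EARLI1 (125 and 197).

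The gene with the most leaf counts was ASG8, with 913 and 994, which codes for a protein of 193 residues that the reference leaves uncharacterized. EXPA16, an expansin of the family that loosens cell walls, had 928 and 975. The leaf levels were 16.8 ± 0.596 CPM for ASG8 and 16.8 ± 0.173 CPM for EXPA16 (SD, n = 2), not adjusted for length. Each was at least 185-fold lower in protoplasts.

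AT3G17070, of the secreted peroxidases that act in the wall, followed with 792 and 737 counts and a bound of at least 149-fold. KCS12, of the 3-ketoacyl-CoA synthases that lengthen fatty acids, had 537 and 580 and a bound of at least 109-fold. These 4 genes are the only members with at least 500 counts in each leaf library. The largest ratio between their leaf libraries, on CPM, was 1.11, in AT3G17070.

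A further 7 members had at least 300 counts in each leaf library. They are a RING-type protein AT4G30400 (463 and 456), the C1-domain protein AT1G62030 (403 and 446), the auxin carrier PIN5 (445 and 376), the receptor-like kinase AT4G22730 (352 and 375), the glycine-rich protein GRP9 (384 and 342), the guard cell channel ALMT12 (310 and 344) and AT3G19550 (322 and 311). AT4G22730 and AT3G19550 each overlap a gene on the opposite strand, and no source used here gives the strand setting of the counting, so their counts are uncertain. The next members in order were the receptor-like kinase AT2G02780 with 272 and 349, CER4 with 248 and 249, the MYB-like regulator AT2G38300 with 204 and 228, and AT1G34640 with 204 and 218. AT1G34640 also overlaps a gene on the opposite strand, so its counts are uncertain too.

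Levels between genes can be compared only per length, here as leaf CPM per kb of coding length. On that scale ASG8 led with 29.0, ahead of EXPA16 with 21.5. AT3G19550 reached 16.9, GRP9 13.9 and AT3G17070 13.3. Short genes came up in this order: CDT1, the cadmium tolerance peptide of 62 residues, had 11.8, AT1G34640 11.3, AT3G61898, of 56 residues, 10.3, AT2G28410 9.12 and the thioredoxin-family protein AT1G03020 7.87. The median member had 1.27.

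The share of loci at 0 was smaller the higher the leaf level. It was 6.41% (81 of 1263 loci) at a mean leaf count of 20 to 49 and 2.34% (32 of 1365) at 50 to 99. From 100 to under 200 it was 1.29% (23 of 1787), from 200 to under 500 0.356% (12 of 3374) and from 500 to under 1000 0.122% (4 of 3278). None of the 6707 loci with a mean of 1000 or more was at 0 in both protoplast libraries, although 6 of them had 3 or fewer protoplast counts in all.

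**Figure D2:**
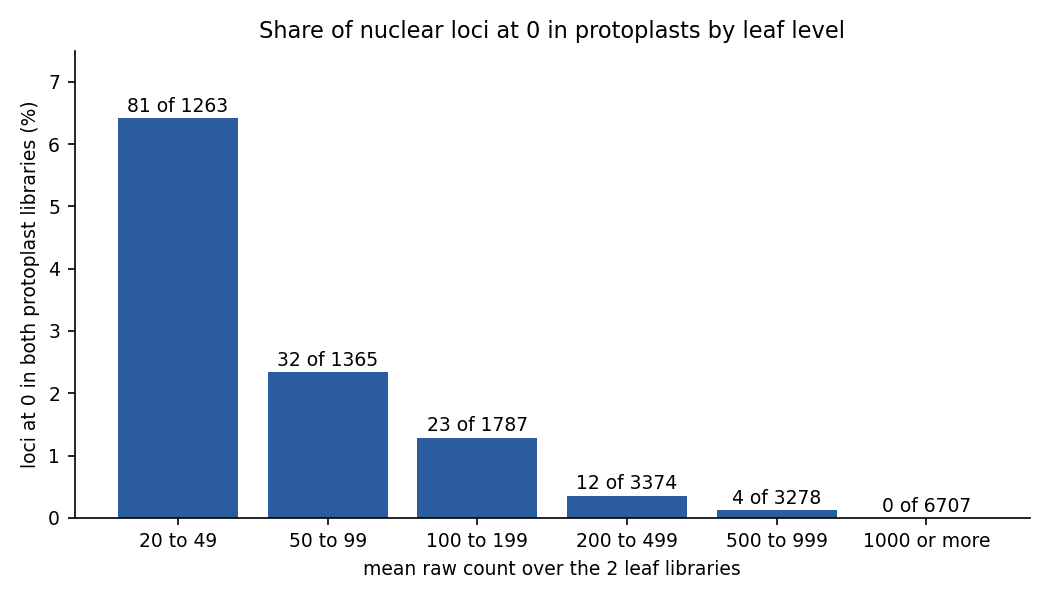
Share of nuclear loci past the leaf minimum that are at 0 in both protoplast libraries (bars, percent), in 6 ranges of the mean raw leaf count, with the numbers of loci above the bars. The share falls from 6.41% in the lowest range to 0% in the highest.

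Genes outside the set also had large ratios. Among loci with at least 1 protoplast count, 67 had a leaf to protoplast CPM ratio above 185, which is the highest lower bound of a member and not its fold, and 29 of them had more than 3 protoplast counts. KCS6, the main elongation enzyme of cuticular wax, is one of these: 19056 and 20716 leaf counts stood against 32 and 12, a ratio of 554. KCS10 had 9987 and 10185 against 18 and 12, a ratio of 401, and the lipid transfer protein gene LTP5 had 12452 and 11115 against 16 and 23, a ratio of 346.

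At the edge of the rule, 102 loci had 1 protoplast count in all. The one with the most leaf counts was ABCG19, an ABC transporter gene with 1418 and 1493 in leaf and 1 and 0 in protoplasts, a ratio of 1718 over pooled libraries with an exact 95% interval of 308 to 67884 that covers counting error only. After it came the GDSL lipase gene AT5G45950 (850 and 972), AT5G25840 (670 and 675), AT5G53486 (666 and 667) and AT1G01250 (632 and 683). ABCG19 thus had more leaf counts than any member, and 1 read kept it out.

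On the leaf side, the members just inside were AT3G27500 with 22 and 21 counts, ABCG10 with 21 and 22 and the auxin synthesis gene YUC2 with 22 and 22. Just outside were AT5G18430 with 19 and 30, GulLO6 with 19 and 26 and TBL3 with 26 and 19. These neighbours cannot be told apart by their counts.

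A protoplast library that took no part in the choice gives a measure independent of the rule. With the loci chosen by leaf and protoplast library 1, 245 qualified, and 152 of them (62.0%) were also at 0 in protoplast library 2, with 48 at 1, 19 at 2 and 26 at 3 or more. The highest was AT1G19230 with 8 counts. Chosen by protoplast library 2 instead, 302 qualified, of which 152 (50.3%) were at 0 in library 1, 54 were at 1, 46 at 2 and 50 at 3 or more, with at most 11 counts, in AT4G16260. Loci at 0 in 1 protoplast library thus stayed under 12 counts in the other, while the zero itself returned in 62.0% and 50.3% of them.

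**Figure D3:**
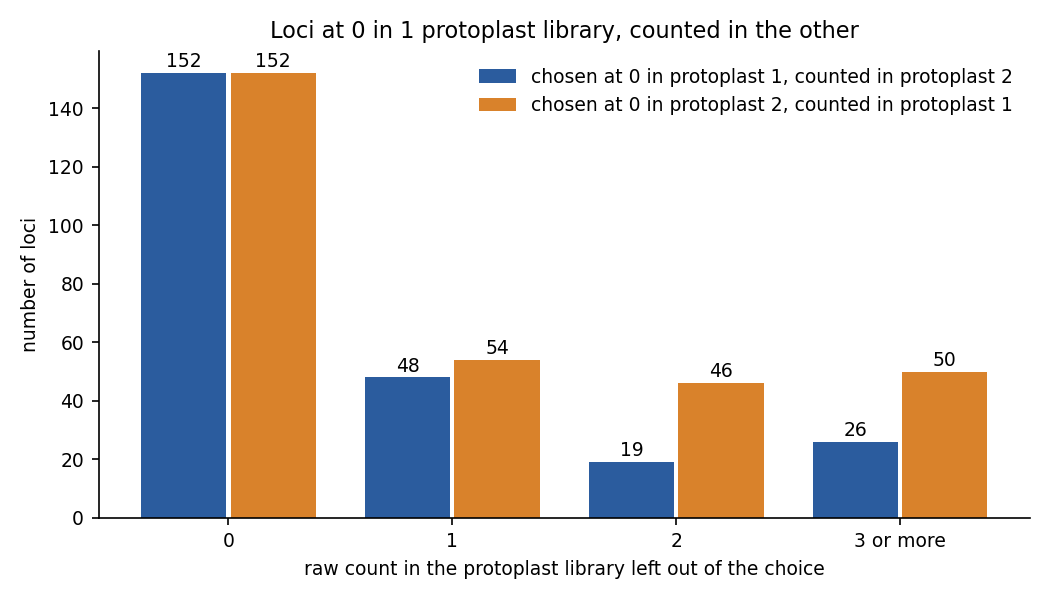
Number of loci by their raw count (0, 1, 2, or 3 or more) in the protoplast library left out of the choice, for loci with at least 20 counts in each leaf library and 0 in protoplast 1 (blue) or protoplast 2 (orange). In both cases 152 loci are at 0 in the left-out library, and 26 and 50 have 3 or more counts.

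The leaf libraries were close to each other for these genes. Chosen with leaf library 1 alone, 167 loci qualified and 152 of them reached 20 in leaf library 2. Chosen with leaf library 2 alone, 179 qualified. The ratio of the larger to the smaller leaf CPM had a median of 1.17 among members with a summed leaf count of 40 to 99 and 1.19 among the 1182 other nuclear loci of that level. Among members with 100 or more summed counts, AT5G27220 (42 and 79), the hydrolase gene AT4G36610 (85 and 53) and AT5G09480 (65 and 108) differed most, with ratios of 1.82, 1.66 and 1.60.

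The 22 gene lists for leaf cell types and pathways held 20 of the members, and 132 members were in none. The lists' own genes were tested across the whole table, and their counts can be set beside the 40.7% lower and 39.8% higher among all genes. How many of a list are members was fixed by the rule and is given without a test. The members of a list are also counted among its tested genes that fell, and the rule made those calls likely. With 0.855% of all loci past the leaf minimum as members, lists of these sizes can hold no member without differing from other loci. Under each alternative fit, the lists named below other than the photosynthesis list kept more genes lower than higher. Genes named beside the members for comparison, here and above, were picked for their roles after their values were seen.

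In the cuticle lists, 30 of 34 tested wax genes fell in protoplasts and 2 rose, and 21 of 23 cutin and suberin genes fell and 1 rose. Members were 3 of the 33 wax genes past the leaf minimum and 2 of 21 of the others. CER4, the reductase that makes the primary alcohols of leaf wax in the epidermis, had 248 and 249 counts and was at least 48.4-fold lower in protoplasts. WSD1, which joins such alcohols to fatty acids as wax esters, had 82 and 83. With KCS12 they make up the 3 wax members, and in all of them the leaf libraries gave nearly the same count.

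FACT, which attaches caffeate to fatty alcohols, had 85 and 90 counts. ABCG2, a transporter known from suberin formation in root and seed coat, had 44 and 66, and shares its sequence with an antisense locus, so its count is uncertain. Among the other genes of the 2 lists that fell, some kept clear counts and some nearly none: CER1, needed for wax alkanes, went from 1984 and 2247 counts to 145 and 109, CER3 from 3382 and 3541 to 860 and 642, and BDG1, for cutin, from 828 and 907 to 2 and 1. The summed level of the wax list was 1819 to 1883 CPM in leaf and 671 to 674 in protoplasts, and that of the cutin and suberin list 417 to 426 and 20.6 to 20.8. The part of lost epidermis in the members' zeros was not tested.

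Epidermal identity genes gave no member. Of 13 tested, 8 fell and 3 rose, and ATML1, which specifies epidermis, went from 3056 and 3064 counts to 5 and 11. The list as a whole kept more, with a summed level of 469 to 473 CPM in leaf and 183 to 184 in protoplasts. Of 26 tested guard cell genes, 20 fell and 4 rose, and the single member was ALMT12, an anion channel of stomatal closure, with 310 and 344 leaf counts and a bound of at least 63.6-fold. MYB60, also known from guard cells, came close with 300 and 281 in leaf and 2 and 1 in protoplasts. KAT1, a potassium channel of the same cells, kept 15 and 5 counts against 955 and 1046.

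The summed level of the guard cell list was 2588 to 2664 CPM in leaf and 2376 to 2459 in protoplasts, a sum that a few abundant genes can set. ABCB14, a malate importer known from guard cells that is in none of the lists, is also a member, with 181 and 210 counts. The stomatal lineage list had no member among the 11 genes past the minimum, while 8 of 12 tested fell and 3 rose.

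The trichome list had 1 member of 12 past the leaf minimum, MYB23, with 45 and 51 counts. MYB23 is a MYB factor that acts with GL1 in making leaf hairs. GL2, which acts after them, missed the rule by a single read, with 52 and 57 leaf counts against 1 and 0. Of 18 tested trichome genes, 11 fell and 4 rose.

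Of the xylem and secondary wall genes past the minimum 4 of 46 were members, and 41 of 53 tested fell while 4 rose. DIR6, a dirigent protein that steers the coupling of lignan precursors, had 94 and 126 counts. IRX15, needed for normal xylan in secondary walls, had 28 and 57. PGSIP1, known as GUX1, which adds glucuronic acid to xylan, had 34 and 54, and the vessel regulator NAC076, known as VND2, had 38 and 26, with an overlapping gene on the opposite strand. In DIR6, IRX15 and PGSIP1 the second leaf library was the higher one, in NAC076 the first, and IRX15 has the largest leaf ratio of any member, 1.97.

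Cellulose synthases of the secondary wall fell to low counts but not to 0. CESA4 went from 290 and 388 to 5 and 4, and IRX3 from 218 and 237 to 4 and 1. The summed level of the xylem list was 340 to 368 CPM in leaf and 350 to 355 in protoplasts, where IRX15-L alone gave 99.5 and 103. The sum in protoplasts thus rests in part on that gene.

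The other vein lists held 1 member. In the companion cell and sieve element list 35 of 43 tested fell and 5 rose, with ENODL14 (42 and 45) as the only member, in a table where 0.855% of all loci past the minimum are members. SUC2, the sucrose transporter that loads phloem, kept 228 and 193 counts against 9208 and 10031. None of the 17 phloem parenchyma, 27 procambium and 13 bundle sheath genes past the minimum was a member, though 15 of 17, 26 of 29 and 12 of 13 tested fell. The summed level of the phloem parenchyma list was 704 to 716 CPM in leaf and 809 to 816 in protoplasts. That of the procambium list was 534 to 536 and 211 to 223, and that of the bundle sheath list 2408 to 2602 and 3857 to 4078. HKT1, a sodium transporter that works beside the xylem, is a member outside the lists with 26 and 25.

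Growth-related lists gave 1 or 2 members each. Of 42 tested expansins and xyloglucan endotransglucosylases, 27 fell and 8 rose, and EXPA16 was the only member. PIN5, an auxin carrier of the endoplasmic reticulum, and YUC2, a synthesis enzyme also placed in the leaf margin list, were the 2 members among 23 auxin genes, of which 19 of 26 tested fell and 7 rose. AT1G29500, of the SAUR family of auxin-induced genes, had 144 and 137 counts, and AS2, which acts in leaf polarity, had 30 and 29. Of the 49 SAUR genes tested 26 fell and 11 rose, of the 18 leaf margin genes 13 and 4, and of the 24 polarity genes 23 and 1.

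The remaining members in lists were EARLI1 (125 and 197), a lipid transfer type protein of the cell surface, the laccase LAC3 (29 and 45) and the peptide gene CLE27 (24 and 22). In their lists 12 of 13 lipid transfer genes, 9 of 12 laccases and 26 of 36 peptide genes tested fell, and 1, 3 and 9 rose. The aliphatic glucosinolate list, where 15 of 16 fell and 1 rose, and the cell cycle list, with 19 of 33 lower and 5 higher, had no member. EARLI1 overlaps a gene on the opposite strand, so its counts are uncertain.

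Outside the lists, the members included genes of many kinds. Transport was represented by SULTR3;5 (116 and 138), a sulfate transporter family gene, ZIP7 (55 and 68), of the zinc transporters, ABCG18 (61 and 49) and UMAMIT8 (42 and 28). Wall enzymes included GH9B8 (118 and 134) and GH9B5 (27 and 37), of a family of endoglucanases. The GDSL lipase AT2G23540 had 127 and 147.

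Regulators included the iron-deficiency factor bHLH38 (52 and 57), which overlaps PIP5K4 on the opposite strand, BLH8 (31 and 40) of the homeodomain proteins, NAC038 (31 and 43) and the seed maturation factor FUS3 (39 and 26). IPT7, which makes cytokinin, had 102 and 119. Names of this kind mostly cover 1 or a few members each. The largest class by annotation words was that of transporters, with 11 members of 488 loci past the leaf minimum (2.25%, beside 0.855% of all loci). No P450 or UDP-glycosyltransferase was found by its annotation words among 115 and 86 such loci, numbers too small to tell 0 members from the 0.855% of all loci. SUS4, AT4G38775, GH9B8, BLH8, NAC038, FUS3, UMAMIT8, GH9B5, ABCG18, ZIP7, SULTR3;5, ABCB14, HKT1 and IPT7, here or below, were picked after their values were seen.

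Many plant genes belong to families of like proteins, and the closest copy of each member was looked up after the first results were seen. A copy was the best match of at least 50% protein identity over at least 70% of the length, and 87 of the 146 proteins had one. The count table holds 79 of these copies, 62 were tested and none is a member. AT4G32800, which fell, is the copy of both AT1G77200 and ESE2 and is counted for each, so these are 61 distinct genes. In protoplasts 45 fell, 10 rose and 7 did not pass the test, beside 40.7% lower and 39.8% higher over all genes, and with library size alone 52 fell and 6 rose. At least 20 counts in each protoplast library were found for 30 of the copies.

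**Figure D4:**
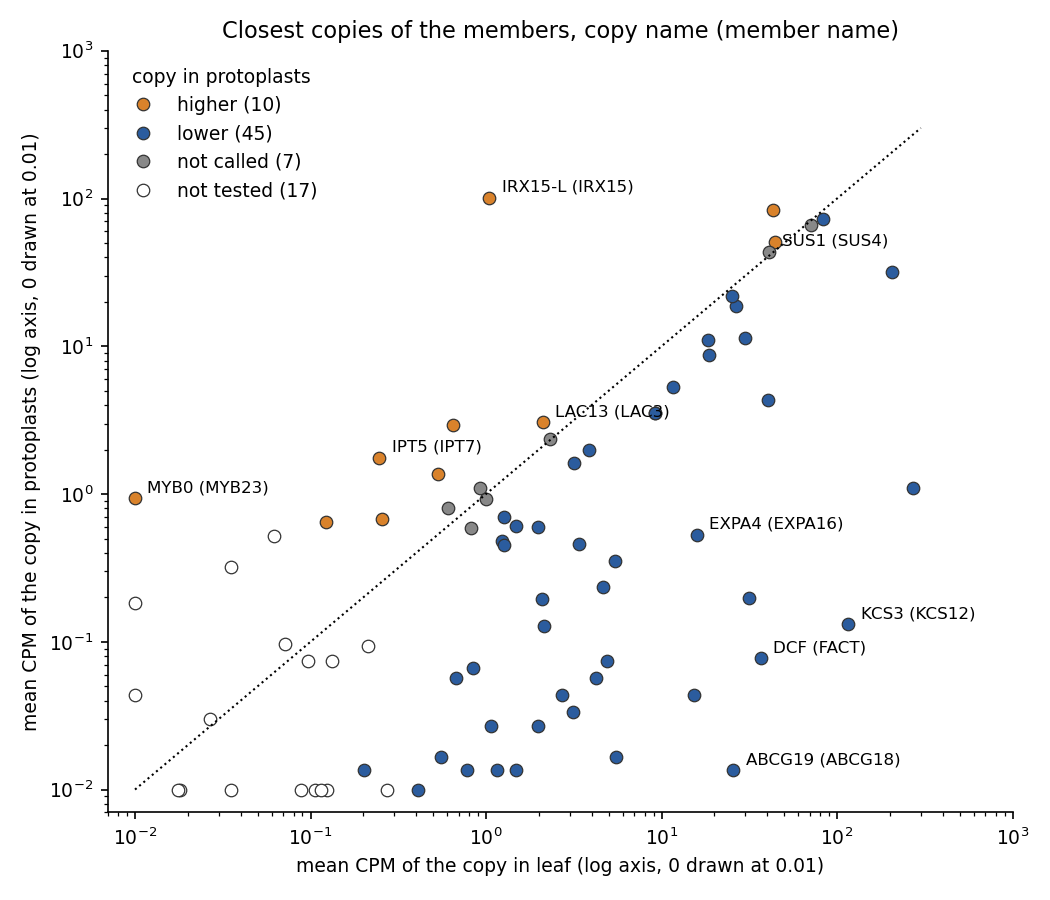
Mean CPM of the 79 closest copies in leaf (x axis) and in protoplasts (y axis), both log axes with 0 drawn at 0.01, coloured by the edgeR call of the copy at an adjusted p under 0.05, with the member's name in brackets and a dotted line of equal level. Most copies lie below the line, while IRX15-L, MYB0 and IPT5 lie far above it.

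The xylan pair went opposite ways. IRX15 went from 28 and 57 counts to 0 and 0, whereas IRX15-L, with 84.0% of aligned residues identical, went from 58 and 60 counts to 3686 and 3091. On CPM, IRX15-L stood at 1.04 and 1.04 in leaf and 99.5 and 103 in protoplasts, a log2 change of 6.60 with an adjusted p of 1.7e-15 in edgeR. The leaf and protoplast libraries of IRX15-L did not overlap, while the zeros of IRX15 were set by the rule.

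The trichome pair did so too. MYB23 had 45 and 51 leaf counts and none in protoplasts, while MYB0, the gene also known as GL1, was at 0 in both leaf libraries and at 32 and 30 in the protoplast ones, at least 17.6-fold higher. The cytokinin enzyme IPT7 had 102 and 119 counts in leaf only, and its copy IPT5 went from 13 and 15 to 60 and 57, a log2 change of 2.81 with an adjusted p of 1.4e-06 in edgeR. In these 3 pairs the member was counted more in leaf and its copy more in protoplasts.

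Other copies kept counts in protoplasts near those in leaf. SUS4, a sucrose synthase, had 49 and 49 leaf counts and none in protoplasts, while SUS1 had 2256 and 2402 in leaf and 1668 and 1264 in protoplasts, a log2 change of 0.09 that did not pass the test in edgeR (adjusted p = 0.17). LAC13, the copy of LAC3, had 124 and 115 against 116 and 89, a log2 change of 0.54 with an adjusted p of 0.0084 in edgeR that is lost with upper-quartile scaling (adjusted p = 0.24) and has the other sign with library size alone (-0.27).

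Other copies fell as well. KCS3, the copy of KCS12, went from 6386 and 6760 counts to 6 and 3, and DCF, the copy of FACT that puts ferulate on cutin, from 1979 and 2188 to 2 and 3. ABCG19, the copy of ABCG18, is the 1-read gene above. EXPA4, the copy of EXPA16, had 847 and 952 in leaf and kept 13 and 21 in protoplasts. The copy of CER4, FAR1, went from 197 and 185 to 9 and 20. That the member of each pair is at 0 follows from the rule.

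The promoters, 250 bases before to 50 after the start in RefSeq's TAIR10.1 annotation, were searched on both strands for 13 short motifs. A match is a description of letters and not a bound site. The TATA box (TATAAA or TATATA), where the transcription machinery can assemble, was in 80.3% of members, 61.0% of all loci past the leaf minimum and 60.3% of the 37899 annotated promoters. The site II element (TGGGCC or TGGGCT), known from broadly used growth genes, was in 4.61%, 26.6% and 19.3%. The G-box (CACGTG) was in 3.29% (5 members), 8.97% and 6.46%. Among members with at least 50 counts in each leaf library it was in 6.15%.

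Other loci of like leaf level had shares closer to those of all loci. Among loci outside the set with a mean leaf count of 20 to 99 the TATA box was in 62.5% and site II in 20.9%, and among the 311 loci with 1 to 3 protoplast counts in 74.6% and 8.36%. Loci called lower, members left out, had 62.0% and 24.4%. The G-box was in 7.63% of the loci of like leaf level and in 6.43% of those with 1 to 3 protoplast counts. A forward TATA box that begins 45 to 20 bases before the start was found in 37 members (24.3%), 18.6% of loci with 1 to 3 protoplast counts and 10.9% of all loci past the leaf minimum. These comparison groups were picked after the first shares were seen.

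The 60 bases before the start are shown for the 4 members with the highest leaf counts that have such a TATA box, in capitals, 5′ to 3′ on the gene's strand, with TAIR10.1 coordinates. ASG8 is on the minus strand at chr2:16908153-16908212, ALMT12 on the plus strand at chr4:9975305-9975364, CER4 on the minus strand at chr4:16207957-16208016 and AT1G34640 on the minus strand at chr1:12688544-12688603.
ASG8: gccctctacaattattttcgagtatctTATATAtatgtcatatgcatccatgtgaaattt
ALMT12: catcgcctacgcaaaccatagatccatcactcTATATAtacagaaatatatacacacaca
CER4: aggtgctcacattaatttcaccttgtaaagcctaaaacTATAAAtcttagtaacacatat
AT1G34640: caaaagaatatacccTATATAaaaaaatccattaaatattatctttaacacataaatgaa

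The box begins 33 bases before the start in ASG8, 28 in ALMT12, 22 in CER4 and 45 in AT1G34640. The others have TATATA and CER4 has TATAAA. Elements named for tissues in the lists were also searched. The L1 box of epidermal genes (TAAATGCA or TAAATGTA) was in 5.26% of members and 5.08% of loci past the leaf minimum. Of the wax members, 0 have it, and of the cutin and suberin members FACT does. The secondary wall MYB element, ACC followed by AAA, AAC, TAA or TAC and then T or C, was in 39.5% and 33.8%.

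The other motifs gave shares in members and in loci past the leaf minimum of 27.0% and 32.3% for the W-box (TTGACC or TTGACT) and 19.7% and 18.5% for the auxin response element (TGTCTC or TGTCGG). The MYB site (CAACTG or TAACTG) was in 14.5% and 16.2%, CATGTG in 16.4% and 12.6% and the I-box core (GATAAG) in 11.2% and 15.0%. The telo box (AAACCCTA) was in 4.61% and 5.61%, the evening element (AAAATATCT) in 3.29% and 2.95% and the GCC box (GCCGCC) in 1.97% and 2.69%. The shares in all annotated promoters were 4.85% for the L1 box, 33.4% for the secondary wall element, 31.4% for the W-box, 18.6% for the auxin element, 16.9% for the MYB site, 12.9% for CATGTG, 15.1% for the I-box core, 6.17% for the telo box, 2.49% for the evening element and 2.72% for the GCC box.

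**Figure D5:**
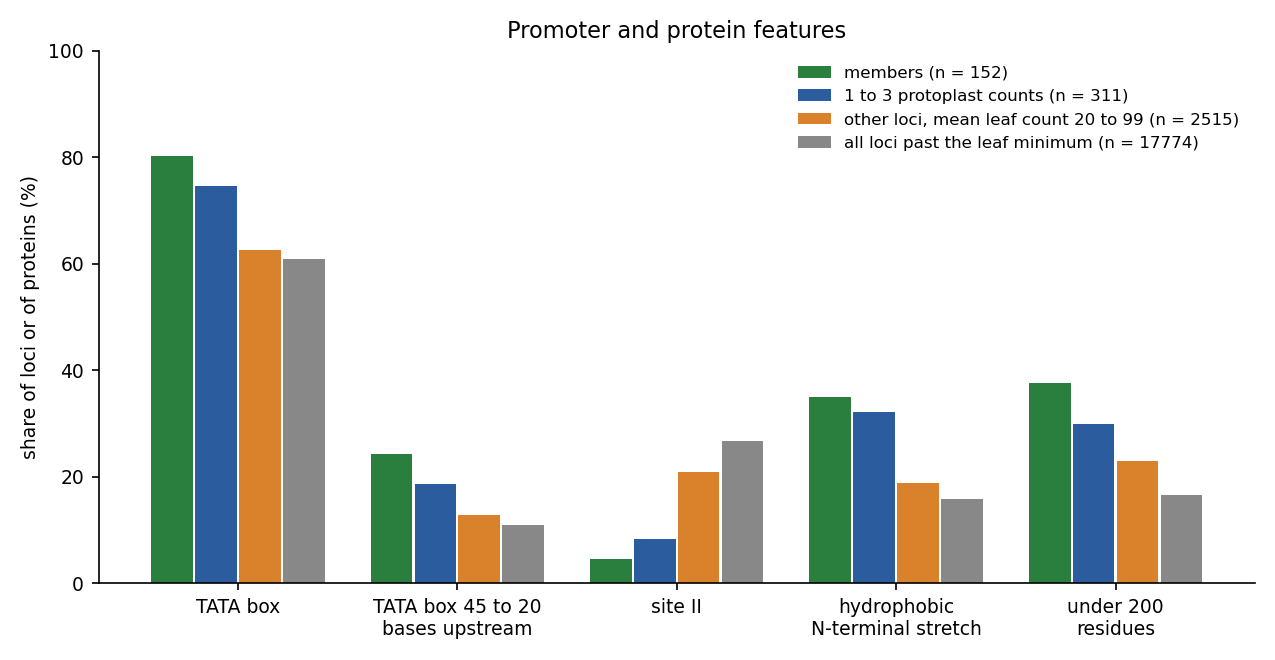
Share of loci with a TATA box or site II in the promoter and share of proteins with a hydrophobic N-terminal stretch or under 200 residues (bars, percent), for members, for loci with 1 to 3 protoplast counts, for other loci with a mean leaf count of 20 to 99 and for all loci past the leaf minimum. Members and loci with 1 to 3 protoplast counts lie on the same side of the other 2 groups in every feature.

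The proteins of the members were short, with a median of 297 residues against 394 for all loci past the leaf minimum, and 37.7% had under 200 residues against 16.7%. This was not particular to them: loci with 1 to 3 protoplast counts had a median of 296 residues and 29.8% under 200. Other loci with a mean leaf count of 20 to 99 had 358 residues and 22.9%. A hydrophobic stretch near the N-terminus, as signal peptides of secreted proteins have, was scored as 12 residues with a mean Kyte and Doolittle hydropathy above 2 within residues 2 to 35. It was in 51 of 146 members (34.9%), 15.8% of all loci past the leaf minimum, 21.9% of loci called lower with members left out and 10.7% of loci called higher. Loci with 1 to 3 protoplast counts had it in 32.1% and other loci with a mean leaf count of 20 to 99 in 18.9%. No signal peptide was predicted by a dedicated tool.

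The members were spread over the genome, with 35, 28, 32, 27 and 30 on chromosomes 1 to 5. Only 2 pairs were immediate neighbours, AT1G78476 with MIR833a, which overlap, and AT4G23680 with DIR6 on the same strand. AT4G23680, of the lipid-binding polyketide cyclase family, had 20 and 35 counts, while its copy AT4G23670 went from 15787 and 14927 to 34 and 38.

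Another gene overlaps 19 of the members, in 17 cases on the opposite strand, so their counts are uncertain. A stretch of at least 150 transcript bases of 95% identity with another gene, found in 13 members, also makes counts uncertain. These groups are not separate. Only in AT1G12672, AT1G35180, AT1G71870 and CAD2 does such a match lie in a gene that does not overlap the member. AT4G38775, with 37 and 34 leaf counts, lies opposite PRP4, a proline-rich wall protein gene with 19232 and 19732 leaf counts against 61 and 82. CAD2 (64 and 72) and CAD3 (74 and 94 in leaf, 1 and 0 in protoplasts) are 98.4% identical over 1163 bases.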

How the data were processed

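The authors deposited a table of raw read counts, whole numbers for each locus and library. The submitters' processing notes name STAR and DESeq with no version. No source used here gives the build, the annotation, the counting tool or its strand setting. The directional kit is given per the labels' protocols. The authors' comparison table was not used.

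Members were chosen on raw counts. All genes were tested with the quasi-likelihood test of edgeR 4.0.16 (R 4.3.3; group as the single term; TMM scaling; filterByExpr, which all 152 members passed). P-values were adjusted after Benjamini and Hochberg and called at 0.05; DESeq2 1.42.0 was an alternative. The code was tested on simulated data. Names, proteins, promoters and microRNAs come from RefSeq's TAIR10.1, matched by locus tag, and copies from BLAST+ 2.17.0.

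The members and the 22 lists were chosen with earlier results of these data known. Of the list entries, 612 matched a symbol, 179 a synonym and 10 were set by hand; 94 had no match, 4 named another gene and 2 were ambiguous. The named genes are the 15 members with the most leaf counts, the 10 with the highest CPM per kb, members in a list, the top member of each annotation class, the 3 with the largest leaf ratio, loci at the edges of the rule and neighbouring pairs; others were picked after their values were seen. Classes are word matches in RefSeq's product names; those for NAC factors and defence peptides also matched unrelated words and are not reported.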

Additional observations from a re-analysis of the deposited data

How the results depend on the processing

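The number of members depends on its thresholds. It was 242 with at least 10 counts in each leaf library, 65 with 50 and 36 with 100, and 254 with at most 1 protoplast count in all or 463 with at most 3. Leaving out 1 library gave 167 to 302. All 152 members were called lower under each of the 10 other settings of the fit, which the rule makes likely. Genes lower in protoplasts numbered 8231, 14057 with library size alone, 7700 to 7928 with 1 library left out and 6707 with DESeq2, beside 8166 higher. Closest copies called lower, checked after the data were seen, numbered 42 to 52. Deviations of the libraries with the same replicate number had a correlation of -0.079 over the tested genes. With 2 libraries of each kind, that value cannot show whether the libraries were paired. The fit with the replicate as a block gave 7868 lower genes. Bounds of the 15 members with the most leaf counts rose to as much as 324-fold with library size alone. With DESeq2 size factors they fell slightly, from 185-fold to 181-fold in ASG8 and from 149-fold to 145-fold in AT3G17070. Among members with at least 50 counts in each leaf library, the hydrophobic stretch was in 46.9% and the I-box core in 18.5%. The trichome, companion cell, leaf margin, laccase, peptide and polarity lists, with 1 member each, then had 0. The xylem list had 1 of 39 genes in place of 4 of 46, and the cutin and auxin lists 1 member in place of 2. The wax list kept its 3 members, and the guard cell, expansin, lipid transfer and SAUR lists their 1. Members below about 100 summed leaf counts have bounds near 10-fold or less, so depth limits what their zeros show.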
